A study of Homo sapiens with 12 samples.

Results

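Metallothioneins are small proteins that bind zinc, copper and cadmium through cysteines, and 8 of their genes were followed here in RNA from 3 human carcinoma lines together with 2 genes of the zinc response, MTF1 and SLC30A1. The 10 genes (MT1A, MT1E, MT1F, MT1G, MT1H, MT1M, MT1X, MT2A, MTF1 and SLC30A1) were taken by gene name from the 25647 genes that all 12 libraries list. The lines stem from a lung adenocarcinoma (A549), a carcinoma of the colon (HCT116) and a hepatocellular carcinoma (MHCC97H). Each line gave 4 poly(A) RNA libraries: cells given 1 µM TSA (trichostatin A), 50 µM GSK126 or 100 µM S2101, and untreated cells. TSA blocks histone deacetylases, GSK126 blocks EZH2, which methylates histone H3, and S2101 blocks LSD1, which removes methyl groups from it. A549 and MHCC97H grew in DMEM and HCT116 in RPMI, so that medium and HCT116 cannot be told apart in any comparison of lines. The study looked for proteins whose genes become detectable after such treatment. The sources used here give neither treatment times nor a vehicle control.

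Metallothioneins hold metal ions in clusters of cysteine thiolates and act as a store of zinc and a buffer against toxic metals. Their human genes lie side by side on chromosome 16. MTF1 is a zinc-finger transcription factor that binds metal response elements in metallothionein promoters when zinc is high, and SLC30A1 (ZnT1) exports zinc across the plasma membrane and is itself a target of MTF1. Metallothionein mRNA is known to be induced by zinc, cadmium, glucocorticoids and oxidative stress, and in several carcinomas some of the genes are known to be methylated and silent.

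The 8 metallothionein genes span 75.6 kb, from the start of MT2A to the end of MT1X (GRCh38, chr16:56608584-56684196), and all are annotated by RefSeq as protein coding. MTF1 (chr1:37809574-37859592) and SLC30A1 (chr1:211571568-211579161) lie on chromosome 1. The coding sequences of the 8 metallothioneins, from the GENCODE annotation of GRCh38 with exons joined, are 186 bases long each and hold 61 codons before the stop. The sequences of MT2A, MT1X and MT1E, which carried most of the reads, are shown because they let a reader see the 20 cysteine codons (TGC or TGT in frame, in capitals) and how alike the genes are (plus strand of chromosome 16).
MT2A: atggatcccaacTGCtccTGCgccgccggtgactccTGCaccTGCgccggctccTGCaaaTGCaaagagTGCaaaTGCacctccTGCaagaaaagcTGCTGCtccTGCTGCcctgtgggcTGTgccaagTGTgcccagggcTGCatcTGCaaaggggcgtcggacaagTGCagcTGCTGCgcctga
MT1X: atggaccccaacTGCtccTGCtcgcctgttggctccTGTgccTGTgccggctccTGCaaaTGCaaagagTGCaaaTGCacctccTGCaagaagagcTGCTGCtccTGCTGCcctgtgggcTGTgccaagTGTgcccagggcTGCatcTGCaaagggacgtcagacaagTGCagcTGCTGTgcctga
MT1E: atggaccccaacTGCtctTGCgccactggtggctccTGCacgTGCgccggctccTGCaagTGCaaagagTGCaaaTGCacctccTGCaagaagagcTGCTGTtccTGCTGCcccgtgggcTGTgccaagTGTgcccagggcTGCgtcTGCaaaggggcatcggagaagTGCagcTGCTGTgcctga
Cysteine codons made up 32.8% of the codons in each of the 8 genes. Identity between pairs of coding sequences ran from 88.7% (MT1F and MT1X) to 95.2% (MT1G and MT2A). Over whole transcripts the genes were easier to tell apart: 2.17% of the 50-base stretches of MT2A occur in another metallothionein transcript, as do 5.34% for MT1E, 14.7% for MT1X, 19.9% for MT1G and 20.4% for MT1H. No 100-base stretch of MT2A, MT1X, MT1E, MT1G, MT1F, MT1A or MT1M was shared, and 3.36% of those of MT1H were. The GENCODE transcripts compared were longer than those behind the RPKM for MT2A (786 and 466 bases), MT1E (704 and 519), MT1F (690 and 456) and MT1M (829 and 464). That can make the shares of these genes too low. The sources used here do not say how reads that match several genes were counted, so the low values of MT1G are uncertain beside MT1X, with which it shares the most 50-base stretches. The closest relatives of MT1H and MT1M by this measure, MT1HL1 and MT1JP, had no read and at most 3 reads in any library.

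RefSeq promoter sequences (GRCh38.p14, 250 bases before to 50 bases after the annotated start) were at hand for 5 of the 10 genes: MT2A, MT1X, MT1H, SLC30A1 and MTF1. Those of MT2A, MT1X and SLC30A1 are printed because these genes carry the abundant metallothionein mRNA and the exporter. Capitals mark the core of the metal response element, TGCACNC or TGCGCNC, searched on both strands, with overlapping matches counted.
MT2A promoter (chr16:56608334-56608633, plus strand): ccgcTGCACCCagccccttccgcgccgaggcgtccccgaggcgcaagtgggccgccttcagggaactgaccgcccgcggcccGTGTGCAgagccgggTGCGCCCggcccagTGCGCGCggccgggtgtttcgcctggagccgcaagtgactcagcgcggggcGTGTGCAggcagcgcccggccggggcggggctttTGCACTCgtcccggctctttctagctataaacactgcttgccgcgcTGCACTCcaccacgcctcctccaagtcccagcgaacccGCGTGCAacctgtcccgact
MT1X promoter (chr16:56682220-56682519, plus strand): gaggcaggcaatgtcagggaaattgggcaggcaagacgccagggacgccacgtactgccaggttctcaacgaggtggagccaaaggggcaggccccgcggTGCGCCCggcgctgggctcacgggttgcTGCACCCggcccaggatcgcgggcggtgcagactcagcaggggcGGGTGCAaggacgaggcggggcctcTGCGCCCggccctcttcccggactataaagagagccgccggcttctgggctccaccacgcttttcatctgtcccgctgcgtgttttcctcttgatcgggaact
SLC30A1 promoter (chr1:211579112-211579411, minus strand): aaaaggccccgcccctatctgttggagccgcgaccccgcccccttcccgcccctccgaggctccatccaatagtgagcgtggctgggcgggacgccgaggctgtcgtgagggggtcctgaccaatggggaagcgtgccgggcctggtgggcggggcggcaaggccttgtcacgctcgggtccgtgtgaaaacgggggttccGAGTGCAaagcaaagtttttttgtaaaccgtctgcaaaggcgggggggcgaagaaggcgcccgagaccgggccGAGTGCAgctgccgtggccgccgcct
The core occurs 8 times in the MT2A window, 8 times in that of MT1H, 4 times in that of MT1X and 2 times in that of SLC30A1, and its letters are not in the MTF1 window. Of all 35116 RefSeq promoter windows of the same length, 29.6% hold the core at least once, 8.6% at least 2 times, 0.601% at least 4 times and 0.074% at least 6 times. A TATA box (TATAAA, either strand) stands in the MT2A and MT1X windows, as in 11.5% of all windows, and not in those of MT1H, SLC30A1 or MTF1. These matches describe letters and not sites in use.

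Each library held between 14468304 and 19061367 counted reads, and no pair of libraries of a line agreed within sampling noise. A549 S2101 stood apart: 59 genes with at most 1 read in untreated A549 and at least 100 reads under TSA sat at a median of 8.83% of their TSA level in it, against 2.61% in A549 GSK126. The same measure was 0.679% in HCT116 S2101 (6 genes) and 0.555% in MHCC97H S2101 (68 genes). Lineage markers were only partly present: in MHCC97H, APOB reached 0.75 to 1.57 RPKM and ALB at most 0.46 RPKM, in A549 SFTPC was at most 0.23 RPKM and NKX2-1 at most 0.37 RPKM, and in HCT116 CDX2 was 5.06 to 5.32 RPKM while CDX1 was listed at 0. Some went against the labelled tissue: intestinal CDH17 was 17.93 to 33.55 RPKM in MHCC97H and at most 0.49 RPKM in HCT116, intestinal VIL1 8.67 to 18.31 and at most 0.17 RPKM in these lines, and lung NKX2-1 was 0.33 to 1.05 RPKM in HCT116. DESeq2 called intestinal CDX2, CDH17, VIL1 and LGR5 higher in MHCC97H than in A549. The markers named are only a part of those looked at. The replicates of a condition are the 3 lines, each with 1 library. With line in the model, a p-value between conditions sets the mean change against the spread that condition and line leave over. That spread pools the differences between lines in their response over all 4 conditions. Tests of GSK126 and S2101 in this fit thus also carry the differences between lines under TSA. P-values between lines use the same pooled spread. Levels are the authors' RPKM (reads scaled to the length of the longest transcript and to the library total), which allow genes to be compared, and a change within a line is the log2 ratio of its libraries in CPM (counts scaled to the library total, by TMM) after 1 CPM is added to each. In bulk RNA, a higher level per cell and a larger share of cells with the transcript cannot be told apart.

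Under TSA the metallothionein mRNAs were much higher in all 3 lines. The summed level of the 8 genes was 1730 RPKM in A549 given TSA, against 224.2 RPKM in untreated A549, which is 7.72-fold. In HCT116 it was 4570 RPKM under TSA and 1134 RPKM untreated, 4.03-fold. In MHCC97H it was 958.4 RPKM under TSA and 13.21 RPKM untreated, 72.6-fold. The line with the lowest untreated level thus showed the largest ratio. The spread between the lines was narrower under TSA, where the highest line stood 4.77 times above the lowest, than in the untreated libraries, where the ratio was 85.8. Metallothionein reads in MHCC97H summed to 445.8 CPM of the library total under TSA (95% Wilson interval 435.1 to 456.7) and 6.18 CPM untreated (5.07 to 7.52). These intervals cover counting error only, because reads amplified by PCR are not independent molecules. With 1 library per line and condition, the difference between the lines in the size of the TSA response has no test.

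**Figure D1:**
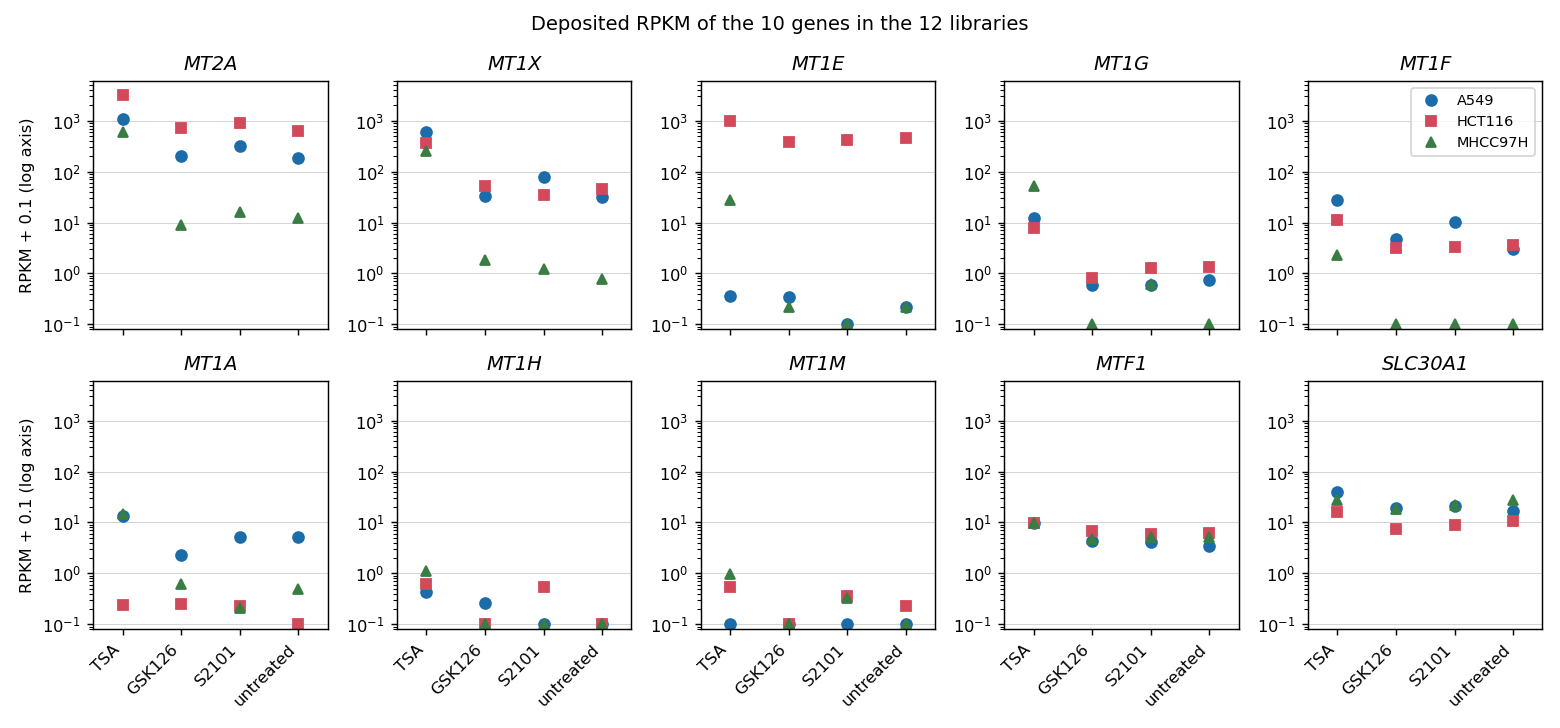
Deposited RPKM plus 0.1 on a log axis for the 10 genes, 1 panel per gene, with the conditions on the x axis and 1 point per library (circles A549, squares HCT116, triangles MHCC97H). MT2A and MT1X are highest under TSA in every line, the MHCC97H points jump most, MT1E is abundant in HCT116, and the 3 TSA points of MTF1 lie on top of each other at 9.63 to 9.79 RPKM.

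Tested across all 16394 genes with enough reads, with condition and line in the model, 6 of the 8 members that passed the filter on low counts were called higher under TSA than untreated and none lower (adjusted p under 0.05). Over all genes tested, 34.1% were called in this comparison and 17.1% were called higher. The median fitted log2 change was 3.22 over the 8 members and 0.0731 over all genes. The filter read all 12 libraries, and without the TSA libraries 7 members passed it. The member count and this median thus include a gene kept for its TSA reads, which is no separate support for a rise. That gene was MT1G, with 414 of its 448 reads under TSA and at most 8 reads in any other library. In the deposited RPKM, 7 of the 8 tested members were higher under TSA in each of the 3 lines. This held for 34.4% of all tested genes. For MT1A in HCT116 (1 read against 0) and MT1E in A549 (2 against 1) it rested on very few reads. TSA ranges lay wholly above the untreated ones for 3 of the 8 (MT1G, MT1X and MTF1), and for 14.2% of tested genes. Untested MT1H was also higher without overlap, on 2 reads in A549, 3 in HCT116 and 6 in MHCC97H, against 0 untreated. The calls leaned on the number of libraries. Without A549, none of 7 tested members and 12 genes in all were called. Without MHCC97H, 3 of 8 members (MT1G, MT1X and MT2A) and 1152 genes in all were called. Without HCT116, 5 of 7 members and 6495 genes in all were called. A fit on the TSA and untreated libraries alone called no gene at all. DESeq2 on the 12 libraries called 7 members, MT1E among them, and 6650 of 18598 genes.

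MT2A, the most abundant human metallothionein in many tissues, was the most abundant of the 8 in all 12 libraries. It stood at 1089 RPKM in A549, 3187 RPKM in HCT116 and 603.4 RPKM in MHCC97H under TSA, against 183.7, 635.6 and 12.03 RPKM in the untreated libraries of the same lines. Each line was higher under TSA, but the groups overlapped, since untreated HCT116 was above TSA-treated MHCC97H. The fitted log2 change was 3.73 ± 0.78 (SE, edgeR adjusted p = 0.00801). Within the lines the log2 changes were 2.33 in A549, 2.25 in HCT116 and 5.24 in MHCC97H. The values for A549 and HCT116 lay close together, while that of MHCC97H rested on 4120 reads under TSA and 90 reads in the untreated library.

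MT1X had the largest fitted change of the 8 tested members. Its level was 586.6 RPKM in A549, 368.8 RPKM in HCT116 and 256.9 RPKM in MHCC97H under TSA, and 31.76, 45.54 and 0.6654 RPKM untreated. Every TSA library stood above every untreated one. The fitted log2 change was 5.13 ± 1.05 (SE, edgeR adjusted p = 0.00758), with within-line changes of 3.90 in A549, 2.88 in HCT116 and 6.46 in MHCC97H. MT1X took a larger part of the metallothionein pool under TSA in all lines: 33.9% of the summed RPKM in A549, 8.07% in HCT116 and 26.8% in MHCC97H under TSA, against 14.2%, 4.02% and 5.04% untreated. MT2A made up 63.0%, 69.7% and 63.0% of the pool in the TSA libraries of these lines.

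Outside TSA, more than 2 reads of MT1E were seen only in HCT116. In HCT116 it reached 994.5 RPKM under TSA (7701 reads) and 448 RPKM untreated (3796 reads), the second most abundant metallothionein of that line in all 4 libraries. In MHCC97H it had 213 reads under TSA (28.01 RPKM) and 1 read untreated (0.12 RPKM), a difference whose counting interval on the log2 scale of scaled reads ran from 5.17 to 12.97. In A549 it had 2 reads under TSA and 1 read untreated, so that no response was detectable there at this depth. The fitted log2 change of 3.501 ± 1.25 missed the threshold (SE, edgeR adjusted p = 0.0567). MT1E was higher in HCT116 and MHCC97H, and DESeq2 gave an adjusted p of 0.01.

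MT1G, MT1F and MT1A were low in untreated cells and higher under TSA where they could be read. MT1G had 11.92 RPKM in A549, 7.785 RPKM in HCT116 and 51.36 RPKM in MHCC97H under TSA, and 0.6443, 1.237 and 0 RPKM untreated, with no overlap between the groups. Its fitted log2 change was 4.94 ± 1.12 (SE, edgeR adjusted p = 0.0109). MT1G passed the filter only through its TSA reads, so this p-value is no separate support for a rise. In MHCC97H the 298 reads under TSA, set against a floor of 3 reads in the untreated library, are at least 109-fold higher. MT1G, low in the other libraries, was the third most abundant metallothionein of TSA-treated MHCC97H. MT1F had 27.64 RPKM in A549, 10.88 RPKM in HCT116 and 2.245 RPKM in MHCC97H under TSA, and 2.938, 3.492 and 0 RPKM untreated. All 3 lines were higher, the groups overlapped, and the fitted log2 change was 2.82 ± 0.79 (SE, edgeR adjusted p = 0.0245). MT1A had 13.4 RPKM in A549, 0.1432 RPKM in HCT116 and 14.58 RPKM in MHCC97H under TSA, and 5.043, 0 and 0.3992 RPKM untreated. It was nearly silent in HCT116, with 0 or 1 read in each of its 4 libraries, and its fitted log2 change was 2.94 ± 0.99 (SE, edgeR adjusted p = 0.0462). This last call was lost without the A549 S2101 library, where the adjusted p was 0.0654.

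MT1H and MT1M did not pass the filter on low counts, with 15 and 14 reads over all 12 libraries. Of these, 11 reads of MT1H and 9 reads of MT1M came from TSA libraries. MT1H had 2 reads in A549, 3 reads in HCT116 and 6 reads in MHCC97H under TSA and no read in any untreated library. MT1M had 0, 3 and 6 reads under TSA in the same order of lines and 0, 1 and 0 reads untreated. A count of 0 allows up to 3 reads, between 0.157 and 0.207 CPM in these libraries, so that neither gene can be called absent from untreated cells.

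**Figure D2:**
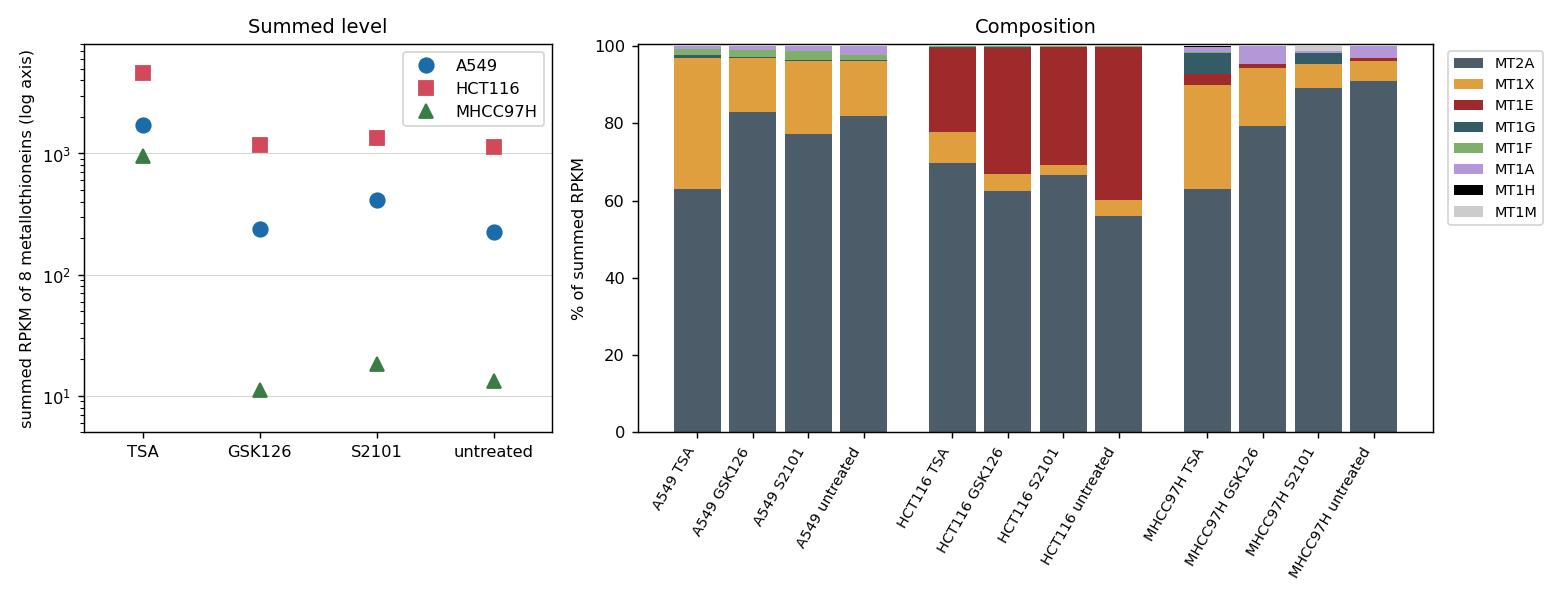
Left, summed RPKM of the 8 metallothioneins on a log axis, 1 point per library, by condition; right, the share of each gene in that sum for the 12 libraries, grouped by line. MT2A is the largest share throughout, MT1E fills 21.8 to 39.5% of the pool in HCT116, and MT1X is wider under TSA than in the untreated library of each line.

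The zinc-sensing factor MTF1 was higher under TSA in every line and came to nearly the same level in all of them. Its values were 9.791 RPKM in A549, 9.634 RPKM in HCT116 and 9.631 RPKM in MHCC97H under TSA, and 3.363, 6.174 and 5.046 RPKM untreated. The mean was 9.69 ± 0.09 RPKM under TSA and 4.86 ± 1.42 RPKM untreated (SD, n = 3 each), and the groups did not overlap. The fitted log2 change was 0.88 ± 0.18 (SE, edgeR adjusted p = 0.00725). Within the lines it was 1.29 in A549, 0.56 in HCT116 and 0.72 in MHCC97H, so that the order of the lines differed from that of the metallothioneins. MTF1 was a gene of moderate level beside MT2A, and its change was smaller than those of the called metallothioneins on the fitted scale.

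The zinc exporter SLC30A1 did not pass the test against untreated cells, and its lines went apart. It stood at 39.5 RPKM in A549, 15.59 RPKM in HCT116 and 27.04 RPKM in MHCC97H under TSA, and at 16.53, 10.69 and 27.96 RPKM untreated. The within-line log2 changes were 1.014 in A549, 0.45 in HCT116 and -0.25 in MHCC97H, the line in which the metallothioneins changed most. The fall in MHCC97H depends on the TMM scaling, since the RPKM ratio there was 0.967. The fitted log2 change was 0.42 ± 0.22 (SE, edgeR adjusted p = 0.166). The mean was 27.4 ± 11.96 RPKM under TSA and 18.4 ± 8.78 RPKM untreated (SD, n = 3 each). Whether the lines differ in this response was not tested, since each has 1 library per condition.

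Along the chromosome, the genes around the metallothionein cluster went in both directions under TSA. Of 6 tested neighbours, 1 was called higher and 2 lower, beside 17.1% of all genes in each direction. GNAO1, a G protein alpha subunit, rose with a fitted log2 change of 4.41 (edgeR adjusted p = 0.00421). It had 169, 2 and 63 reads in A549, HCT116 and MHCC97H under TSA, against 2, 1 and 4 reads untreated. NUDT21, a factor of mRNA 3' end processing, fell by 1.27 on the log2 scale (edgeR adjusted p = 0.00581) and OGFOD1, a prolyl hydroxylase, by 0.47 (edgeR adjusted p = 0.0229). BBS2, whose annotated span overlaps OGFOD1, had within-line log2 changes of 0.76 in A549, 0.03 in HCT116 and 0.00 in MHCC97H. NUP93, the nearest neighbour beyond MT1X, had 0.00, -0.21 and 0.10 in the same lines, and HERPUD1, an endoplasmic reticulum stress gene, 0.83, -1.08 and 2.02. SLC12A3 and CETP had too few reads to be tested. Without MHCC97H or without A549 none of these 3 neighbour calls held.

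The other metallothionein genes were close to silent. MT3, the brain-enriched member of the family, had 82 reads in TSA-treated A549, 10 in A549 given S2101, 1 in A549 given GSK126 and 0 in untreated A549. That makes TSA at least 28.9-fold higher, over a floor of 3 reads in the untreated library. In MHCC97H MT3 had 6 reads under TSA and 0 in the other 3 libraries, and in HCT116 none in any. MT1L, a metallothionein pseudogene, had 42 reads in TSA-treated MHCC97H, against 1 read in untreated MHCC97H, and at most 3 in the 8 libraries of the other lines. With no filter on low counts, edgeR called MT3 (fitted log2 change 7.73, adjusted p = 0.00869) and MT1L (3.24, adjusted p = 0.0404) higher, beside 5490 genes called in all. Both rested mostly on 1 TSA library, and DESeq2 called none of these genes. MT1DP, the only one of these genes with enough reads for the main test, was not called (fitted log2 change 2.09, edgeR adjusted p = 0.105). Its reads were 23, 14 and 17 in A549, HCT116 and MHCC97H under TSA and 4, 11 and 0 untreated. MT1B had 5 reads in HCT116 and 7 in MHCC97H under TSA, against 1 and 0 untreated. MT1JP had at most 3 reads and MT4 at most 1 read in any library, and MT1HL1 and MT1IP had none.

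**Figure D3:**
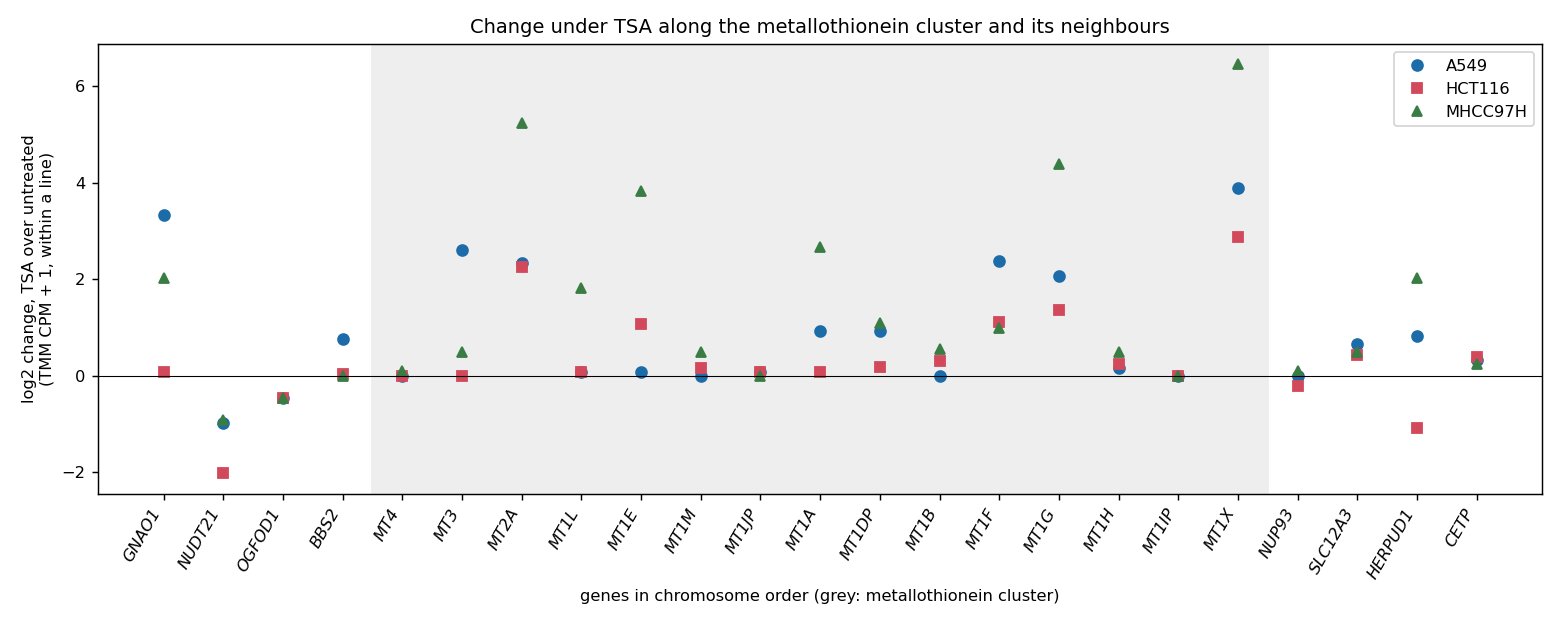
Log2 change under TSA within each line (TMM-scaled CPM plus 1) for the genes of the metallothionein cluster (grey) and their neighbours, in chromosome order. MT2A and MT1X are above 2 in all lines, MHCC97H also shows MT1E, MT1G and MT1A high, and of the neighbours GNAO1 is higher in A549 and MHCC97H, HERPUD1 is higher in these lines and lower in HCT116, and NUDT21 and OGFOD1 are below 0 in all 3.

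Under GSK126 no member changed beyond the pooled spread of the fit. None of the 8 tested members was called, none had an unadjusted p under 0.05, and DESeq2 called none. Over all genes edgeR called 0% of 16394, with 2784 genes at an unadjusted p under 0.05, and DESeq2 called 1201. The figure of 0% belongs to the fit that includes TSA: edgeR called 2124 genes without the TSA libraries and 275 in the fit on the 6 libraries compared. Only 7 and 5 members passed the filter in these fits, and none was called. MT2A stood at 198.9 RPKM in A549, 727.9 RPKM in HCT116 and 8.91 RPKM in MHCC97H under GSK126, against 183.7, 635.6 and 12.03 RPKM untreated. That is higher in 2 lines and lower in the third. MT1X stood at 33.08, 52.17 and 1.696 RPKM under GSK126 and at 31.76, 45.54 and 0.6654 RPKM untreated in the same lines, the last pair from 13 and 5 reads. MT1E in HCT116 had 379.8 RPKM under GSK126 and 448 RPKM untreated. SLC30A1 was lower in 2 of 3 lines, with 18.98, 7.358 and 18.46 RPKM under GSK126 and 16.53, 10.69 and 27.96 RPKM untreated, and gave the lowest p of the members (fitted log2 change -0.37 ± 0.22, SE, edgeR adjusted p = 0.452). MTF1 averaged 5.16 ± 1.33 RPKM under GSK126 and 4.86 ± 1.42 RPKM untreated (SD, n = 3 each). The fitted log2 changes of the 8 members ran from -0.69 to 0.21 (MT2A 0.02 ± 0.67, MT1X 0.21 ± 0.88, SE).

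S2101 likewise gave no call among the 8 tested members by edgeR, none at an unadjusted p under 0.05, and none by DESeq2. Here too edgeR called 0% of all genes, with 821 at an unadjusted p under 0.05, and DESeq2 called 17. The edgeR fit called 0 genes without the TSA libraries and 20 in the 6 libraries compared. Only 7 and 5 members passed the filter there, and none was called. MT2A was the single member with a higher RPKM in all 3 lines, which 23.5% of tested genes also showed: 316.2 RPKM in A549, 895.8 RPKM in HCT116 and 16.29 RPKM in MHCC97H, against 183.7, 635.6 and 12.03 RPKM untreated. Its fitted log2 change was 0.53 ± 0.67 (SE, edgeR adjusted p = 1). MT1E was the single member lower in all 3 lines, as were 16.1% of tested genes, at 408.5 RPKM in HCT116 given S2101 and 448 RPKM in untreated HCT116, with 0 reads under S2101 and 1 read untreated in A549 and likewise in MHCC97H. MT1X was 78.15 RPKM in A549 given S2101, against 31.76 RPKM in untreated A549. In HCT116 it was 35.2 RPKM under S2101 and 45.54 RPKM untreated, and in MHCC97H 1.119 RPKM under S2101 and 0.6654 RPKM untreated. MT1F had 10.2 RPKM in A549 given S2101 and 2.938 RPKM in untreated A549, with 3.238 and 3.492 RPKM under S2101 and untreated in HCT116 and 0 in both libraries of MHCC97H. These A549 values rest on the library that stood apart, and the part of its TSA-like profile in them was not tested. With 8.83% of the A549 TSA level taken off and the remainder scaled up to a whole library, the ratio of S2101 to untreated in A549 became 0.91 for MT1X (2.46 as deposited), 1.31 for MT2A (1.72) and 2.9 for MT1F (3.47). The same step put MT1G at -0.61 RPKM, MT1E at -0.025 RPKM and MT1H at -0.033 RPKM, all with at most 3 reads in that library. Levels below 0 are not possible, so these adjusted ratios are rough. Without that library the fitted log2 change of MT1X was -0.49 in place of 0.44 and that of MT1F -0.02 in place of 0.70. SLC30A1 had 20.49, 8.652 and 21.65 RPKM under S2101 in A549, HCT116 and MHCC97H, and 16.53, 10.69 and 27.96 RPKM untreated.

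Set against the other compounds, TSA again had the higher metallothionein levels. These comparisons share the TSA libraries with those above and are not separate support. Here too MT1G passed the filter only through its TSA reads. Against GSK126, 7 of 8 tested members were called higher under TSA and none lower (28.7% of all genes called, 14.5% higher). SLC30A1 was among them, at 39.5, 15.59 and 27.04 RPKM under TSA and 18.98, 7.358 and 18.46 RPKM under GSK126 in A549, HCT116 and MHCC97H. All 3 lines were higher, and the fitted log2 change was 0.79 ± 0.22 (SE, edgeR adjusted p = 0.0271). MT1E missed the threshold (fitted log2 change 3.62, edgeR adjusted p = 0.0587). Against S2101, 4 of 8 were called higher and none lower (26.3% of all genes called, 13.2% higher): MT1G (fitted log2 change 4.804), MT1X (4.70), MT2A (3.20) and MTF1 (0.88). The other 4 lay between adjusted p of 0.052 and 0.0641 by edgeR, and DESeq2 called all 8 and 5508 of 18161 genes. Leaving out MHCC97H left no member and 0 genes in all called against S2101, and leaving out A549 no member and 17 genes. Against GSK126, leaving out A549 left no member and 0 genes called, and leaving out MHCC97H 3 members and 1088 genes. Without the A549 S2101 library, 2 members and 1926 genes were called against S2101. Between GSK126 and S2101 edgeR called none of the 8 members, with none at an unadjusted p under 0.05, and DESeq2 called none. Over all genes edgeR called 0%, with 455 at an unadjusted p under 0.05, and DESeq2 called 0.

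The lines differed in which metallothioneins they used. Over the 4 libraries of a line, MT1E was lower in A549 than in HCT116 by a fitted log2 change of -12.68 (edgeR adjusted p = 0.00014), with 0.158 ± 0.122 RPKM in A549 and 557.7 ± 292.5 RPKM in HCT116 (SD, n = 4 each). MT1A ran the other way, with 6.42 ± 4.84 RPKM in A549 and 0.104 ± 0.0701 RPKM in HCT116 (SD, n = 4 each; fitted log2 change 6.23, edgeR adjusted p = 0.00183). SLC30A1 was higher in A549 than in HCT116 (23.9 ± 10.6 and 10.6 ± 3.61 RPKM, SD, n = 4 each; edgeR adjusted p = 0.00086) and MTF1 lower (5.33 ± 2.998 and 7.09 ± 1.73 RPKM; edgeR adjusted p = 0.0457). Of the 8 tested members, 2 were called higher and 2 lower in A549 than in HCT116, where 44.1% of all genes were called (23.1% higher and 21.1% lower). MHCC97H had the least metallothionein mRNA, with 11.25, 18.28 and 13.21 RPKM summed over the 8 genes under GSK126, under S2101 and untreated. Against MHCC97H, 3 members were higher in A549 (MT1F, MT1X and MT2A) and none lower, with 43.5% of all genes called (22.8% higher and 20.7% lower). In HCT116, 4 were higher than in MHCC97H (MT1E, MT1F, MT1X and MT2A) and 2 lower (MT1A and SLC30A1), with 55.1% of all genes called (27.8% higher and 27.4% lower). Without the TSA libraries, 4 members were called higher and 1 lower in A549 than in MHCC97H, with 8901 genes called in all. Without the S2101 libraries, 1 member was called higher and none lower, with 4038 genes in all. These values average over treated and untreated libraries, so the SD holds the TSA response too. In the order of untreated levels, MT2A ran HCT116, A549, MHCC97H, and SLC30A1 ran MHCC97H, A549, HCT116, each from 1 library per line.

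Across the 12 libraries and on the log2 scale of scaled reads, MT2A and MT1X had a Pearson correlation of 0.909, and 0.975 after the mean of each line was taken off. MT1G followed both closely within the lines (0.985 with MT2A and 0.976 with MT1X, after line means). MTF1 had 0.438 with MT2A before and 0.821 after line means were removed. SLC30A1 had -0.422 with MT2A before and 0.488 after. All of these points share lines, libraries and depth. The rise under TSA remains after line means are removed, so these correlations are no separate support for it. How reads that match both MT1G and MT1X were counted is not known. The 5 tested genes most like MT2A were CSRP2, NKD2, PARM1, CKMT1A and FYN, with correlations of 0.976 to 0.983. For MT1X they were SPTBN4, NME7, SESN3, TMEM145 and PLCD1 (0.972 to 0.978), for MTF1 ZNF557, MPC1, UBE4A, PCMT1 and LRCH4 (0.953 to 0.965) and for SLC30A1 GFM1, DBNL, ZNF772, ZNF606 and SCML1 (0.947 to 0.951).

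Zinc transporters did not move as a group under TSA. Of 7 other tested exporters of the SLC30 family, SLC30A4, which loads zinc into vesicles, was the only one called higher by edgeR (fitted log2 change 2.11 ± 0.54, SE, edgeR adjusted p = 0.018) and none was called lower; DESeq2 called SLC30A3, SLC30A4 and SLC30A9 higher. The mean of SLC30A4 was 2.36 ± 0.69 RPKM under TSA and 0.637 ± 0.404 RPKM untreated (SD, n = 3 each). Of 11 tested importers of the SLC39 family, 4 were called lower and 1 higher, beside 17.1% of all genes in each direction, and DESeq2 called the same 5. SLC39A1, an importer of the plasma membrane, fell by 0.95 on the log2 scale (edgeR adjusted p = 0.00208), SLC39A10 by 0.96 (edgeR adjusted p = 0.0194), SLC39A14, which also carries iron, by 0.66 (edgeR adjusted p = 0.0341) and SLC39A7, which releases zinc from the endoplasmic reticulum, by 0.47. SLC39A1 was about equally lower in every line, with log2 changes of -1.01 in A549, -0.81 in HCT116 and -0.997 in MHCC97H. SLC39A9 was higher, with a fitted log2 change of 0.63 (edgeR adjusted p = 0.0255). Without A549 none of these edgeR transporter calls held, and without MHCC97H only those of SLC39A1 and SLC39A14 did. The call of SLC39A7 was also lost with no filter on low counts. The median fitted log2 change was 0.0621 over the exporters, -0.122 over the importers and 0.0731 over all genes.

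**Figure D4:**
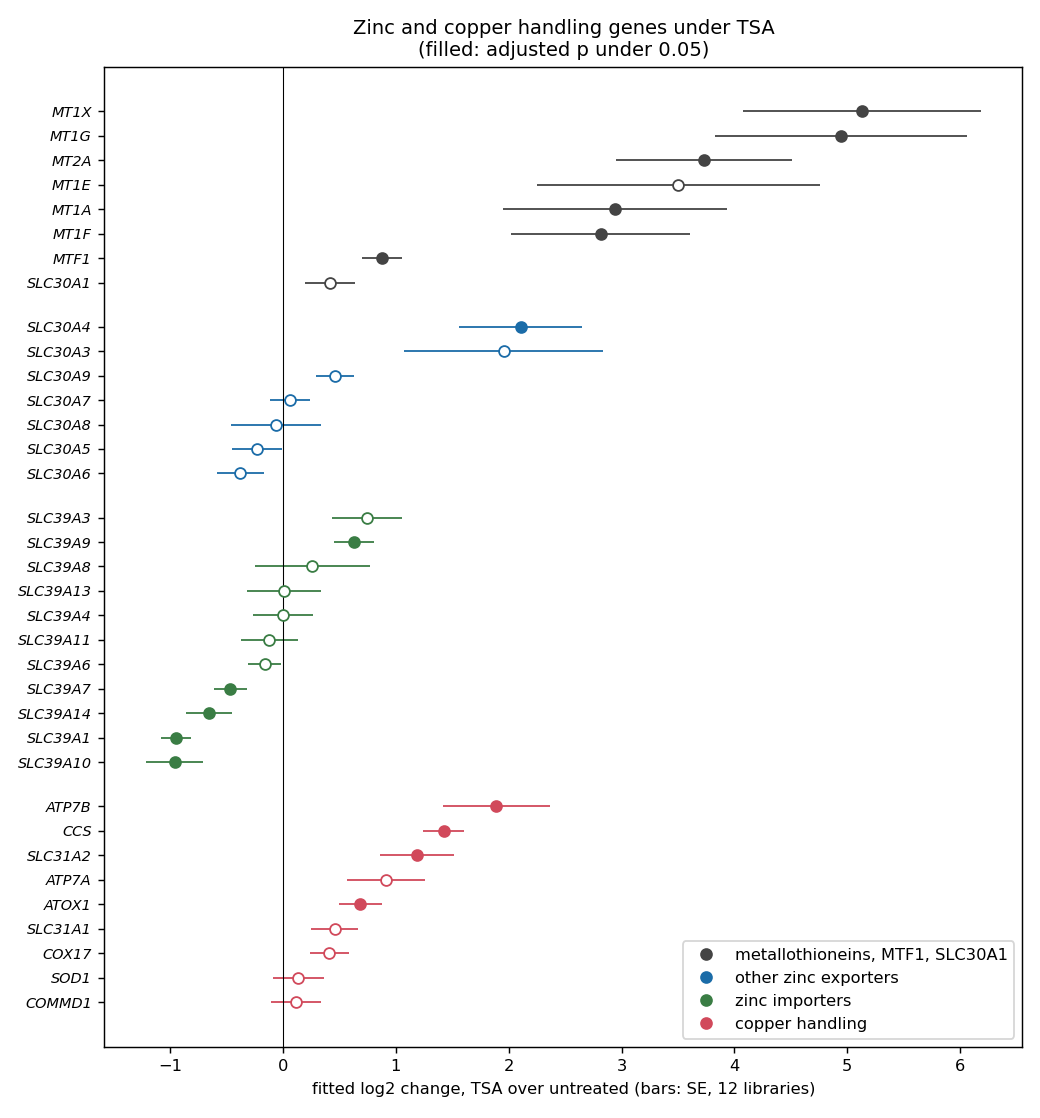
Fitted log2 change under TSA against untreated for the 8 tested members and for the tested zinc exporters, zinc importers and copper genes, with standard errors from the 12-library fit; filled points have an adjusted p under 0.05. The metallothioneins lie between 2.82 and 5.13, all other zinc and copper genes below 2.2, and the called importers except SLC39A9 lie below 0.

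Of 9 tested copper genes, which share the metallothioneins as a metal store, 4 were called higher and none lower, beside 17.1% of all genes in each direction: ATP7B, a copper-exporting ATPase (fitted log2 change 1.89 ± 0.48, SE, edgeR adjusted p = 0.0164), CCS, the copper chaperone of SOD1 (1.42 ± 0.19, edgeR adjusted p = 0.00191), SLC31A2, a copper transporter (1.19), and ATOX1, a copper chaperone (0.69). CCS averaged 38.7 ± 15.8 RPKM under TSA and 12.8 ± 4.33 RPKM untreated (SD, n = 3 each). The median fitted log2 change of the list was 0.686, beside 0.0731 over all genes. Without MHCC97H only CCS kept its call and without A549 none did.

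Genes of metal and oxidative stress went in both directions, and the counts here and in the next lists stand beside 34.1% of all genes called. Of 12 tested, DNAJB1, a heat shock co-chaperone, rose (fitted log2 change 1.45, edgeR adjusted p = 0.0306) and 3 fell: SLC7A11, the cystine importer, by 3.14 on the log2 scale (edgeR adjusted p = 0.00113), GCLM, a subunit of the first enzyme of glutathione synthesis, by 1.24, and NQO1, a quinone reductase, by 1.00. HMOX1, a classical cadmium response gene, was not called, with within-line log2 changes of 0.08 in A549, 0.84 in HCT116 and 0.99 in MHCC97H. Of 6 tested glucocorticoid targets DUSP1 (fitted log2 change 1.63, edgeR adjusted p = 0.0161) and KLF9 (1.30, edgeR adjusted p = 0.0413) were higher. Of 6 other factors known to act on metallothionein promoters, STAT3 was higher (1.54, edgeR adjusted p = 0.0023) and SP1 lower (fell by 0.75, edgeR adjusted p = 0.00608). Without A549 none of the calls of these lists held. Without MHCC97H the calls of SLC7A11, STAT3 and SP1 held.

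Under GSK126 and S2101 edgeR on the 12 libraries called no gene in any of these lists. Without the TSA libraries it called the importers SLC39A7, SLC39A11 and SLC39A13 and the copper importer SLC31A1 higher under GSK126, and FKBP5, a glucocorticoid target, NUDT21 and NUP93 lower. That fit called none of the listed genes under S2101, and the 6-library fits none under either compound. At an unadjusted p under 0.05 GSK126 had 1 zinc exporter, 3 importers, 1 stress gene, 3 glucocorticoid targets and 1 neighbour, and DESeq2 called SLC39A7, DUSP1 and NUP93. S2101 had 1 stress gene at that level and none by DESeq2. By size of fitted log2 change, the leading transporters under GSK126 were SLC39A13 (0.92), SLC30A4 (0.84), SLC39A7 (0.74) and SLC30A5 (0.47), and under S2101 SLC39A13 (0.46), SLC30A4 (0.46), SLC39A11 (0.39) and SLC30A3 (0.33). The leading copper genes were ATP7B (0.62) and SLC31A2 (0.61) under GSK126, and SLC31A2 (0.43) and CCS (0.28) under S2101. In the remaining lists, the 2 leading genes under GSK126 were TSC22D3 (1.41) and DUSP1 (1.23), GCLC (0.58) and FTH1 (0.57), EP300 (0.21) and USF1 (0.13), and GNAO1 (1.78) and HERPUD1 (1.13). For S2101 they were DUSP1 (0.84) and PER1 (0.55), HMOX1 (0.58) and FTH1 (0.51), NR3C1 (-0.23) and NFE2L2 (-0.16), and GNAO1 (1.11) and NUP93 (-0.46).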

How the data were processed

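Poly(A) RNA was sequenced in 12 libraries, 3 lines in 4 conditions, with a NEBNext kit, per the labels' protocols. The authors deposited, per the file headers, a read count per gene and an RPKM value per kilobase of the longest transcript. The submitters' processing notes name GRCh38 and hg38; the sources used here name no aligner, counter or strand setting. An entry without a gene name or count in 11 tables was left out.

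Counts were tested with the quasi-likelihood F test of edgeR 4.0.16 in R 4.3.3 on all 12 libraries, with TMM scaling (factors 0.89 to 1.11), filterByExpr on condition (16394 genes kept) and terms for condition and line, leaving 6 residual degrees of freedom. P-values were adjusted by Benjamini-Hochberg over all genes tested, and calls are at 0.05. The standard error is the absolute log2 change over the square root of F. The line pairs the libraries of different conditions because the labels name it: deviations from condition means correlated at 0.705 to 0.952 within a line and -0.63 to -0.245 between lines. Within a line, libraries were compared by the log2 ratio of CPM (TMM-scaled, 1 added), with exact binomial counting intervals. Library totals of 14468304 to 19061367 reads put a floor of 3 reads at 0.157 to 0.207 CPM. The edgeR step was also run on simulated counts with 1 common dispersion and the same change in all 3 lines. That setting does not cover responses that differ between lines, as seen here.

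Genes named are the 10 members, per list and compound up to 4 called genes with the largest change or the 2 largest where none was called, all detected other metallothioneins, all neighbours listed and the 5 most correlated genes for 4 members; SLC39A7 and HMOX1 under TSA, genes named for a call by DESeq2 or without the TSA libraries and the lineage markers are outside this rule and were chosen after their values were seen. A further neighbour of the cluster is not reported here. Liver, lung and intestine markers served only to check the lines. The members and lists were chosen with earlier results of these data known. Alternatives were RLE scaling, no filter, a filter of 10 CPM in 3 libraries, a model with no term for line, dropping 1 line at a time, only the 6 libraries of a comparison, DESeq2 1.42.0 and leaving out the A549 S2101 library, the TSA libraries or other conditions. Chosen after seeing the data were a fit without TSA and the A549 S2101 libraries and the subtraction of a share of the TSA level. Promoters are from RefSeq, and MT1A, MT1E, MT1F, MT1G and MT1M had none there. Figures were drawn with matplotlib 3.10.9 in Python 3.11.15.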

Additional observations from a re-analysis of the deposited data

Results flagged for a closer look

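Several members moved in opposite directions in different lines by more than counting error, with the TMM scaling factors taken as exact. Each line has 1 library per condition, so none of these differences was tested. All values are log2 changes against the untreated library of the same line, on TMM-scaled CPM plus 1.

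Under TSA, the exporter SLC30A1 was at 1.014 in A549 and 0.45 in HCT116, against -0.25 in MHCC97H. In RPKM, which uses no TMM factor, the MHCC97H ratio was 0.967, so the size of this fall depends on the scaling. Under S2101, SLC30A1 was at 0.19 in A549, -0.33 in HCT116 and -0.39 in MHCC97H. MT1X under S2101 was at 1.14 in A549 and -0.39 in HCT116, and the A549 value comes from the library that stood apart. Under GSK126, MT2A was at 0.24 in HCT116 and -0.41 in MHCC97H (68 reads under GSK126 and 90 untreated). MTF1 under GSK126 was at 0.21 in A549, 0.15 in HCT116 and -0.18 in MHCC97H.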

How the results depend on the processing

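The 12 libraries hold 1 library per line and condition, so calls depend on how the spread is pooled. Counts over all genes stand in brackets beside those of members. Of the members called under TSA against untreated, 6 (5598), none was called without the replicate block of the lines (260). None was called in a fit on the 6 libraries compared (0), and 0 to 5 when 1 line was left out (12 to 6495). Against GSK126, with 7 called (4707), 4 were called at 10 CPM in 3 libraries (3720) and 0 without the replicate block (14). The 6-library fit called 0 (135), and 0 to 6 were called without 1 line (0 to 5496). Against S2101, with 4 called (4306), the counts were 0 without the block (0) and 0 in the 6-library fit (0). They were 0 to 4 without 1 line (0 to 5144), 2 without the A549 S2101 library (1926) and 8 by DESeq2 (5508). A549 against MHCC97H, with 3 called higher (7130), gave 4 higher and 1 lower without the TSA libraries (8901). It gave 1 higher without the S2101 libraries (4038). The cause of these shifts was not tested. No log2 change of a called gene turned its sign.

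Of uncalled log2 changes, 38 values turned their sign. With 1 line left out, the ranges were -0.22 to 1.58 for HERPUD1 and -0.083 to 0.085 for NUP93 under TSA, and -0.13 to 0.56 for MT1F and -0.11 to 0.16 for MT2A under GSK126. Under S2101 they were -0.29 to 0.10 for MT1A, -0.14 to 1.51 for MT1F, -0.20 to 0.54 for MT1G, -0.21 to 1.02 for MT1X and -0.037 to 0.066 for MTF1. Between GSK126 and S2101 they were -0.95 to 0.0090 for MT1F, -0.79 to 0.62 for MT1X and -0.0238 to 0.19 for MTF1. NUP93 came to 0.13 under TSA at 10 CPM. DESeq2 gave 0.38 for MT1E under GSK126 and, under S2101, 0.012 for MT1A and 0.011 for MTF1. Without the A549 S2101 library, S2101 against untreated was -0.015 for MT1F, -0.49 for MT1X and 0.064 for MTF1, and with the TSA libraries also left out -0.29 for MT1X and 0.00688 for MTF1. MTF1 under S2101 was 0.013 with RLE scaling, 0.017 with no filter, 0.041 at 10 CPM, 0.025 in 6 libraries and 0.022 without TSA. GSK126 against S2101 became 1.31 for MT1A, 0.20 for MT1F and 0.70 for MT1X without the A549 S2101 library, and -0.021 for MT1E without the replicate block. In A549 against HCT116, MT1X was -0.44 without the A549 S2101 library and -0.27 without all S2101 libraries. In A549 against MHCC97H, MT1E was 0.54 without TSA, MT1G 0.030 by DESeq2 and SLC30A1 0.033 without the untreated libraries. In HCT116 against MHCC97H, MT1G was 0.70 by DESeq2 and MTF1 -0.044 without GSK126.

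Depth limits MT1H, MT1M, MT1A in HCT116 and MT1E in A549, with at most 6 reads in any of those libraries.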
